A study of Ictidomys tridecemlineatus with 15 samples.

Results

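The transition from interbout arousal (IBA) to entrance into torpor (Ent) was examined in the liver of the 13-lined ground squirrel, a hibernator, by comparing the 3 IBA libraries with the 3 Ent libraries among the 14 GRO-seq libraries of the count table. IBA animals were warm, in the short interval between torpor bouts. Ent animals had left such an interval and were taken while they cooled. By the paper's methods, IBA animals were taken soon after rewarming, and Ent animals after a longer warm period and earlier in the calendar season. The comparison therefore spans time since rewarming and date as well as cooling, and their separate parts were not tested. All 6 were laboratory-housed females from a breeding colony that carried implanted temperature loggers, as were the animals of the other 3 states: summer active (SA), early torpor (ET) and late torpor (LT). Each library came from a different animal, so the spread within a group is that between animals. The 3 IBA animals and Ent replicate 3 were collected in the same, later winter, whereas Ent replicates 1 and 2 came from an earlier winter.

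Global run-on sequencing (GRO-seq) lets polymerases that were at work when the nuclei were isolated add labelled bases to their RNA, and sequences that labelled RNA, so that its reads report where transcription was in progress and not how much mature RNA the cell held. As body temperature falls in a hibernator, enzyme reactions slow, and polymerase that has started on a gene moves more slowly along it. The liver makes most plasma proteins, and supplies glucose and ketone bodies during a fast. Because reads were scaled to the library, the values describe how transcription was shared among genes, and a change in the total amount of transcription per nucleus could not be seen. Neither could fewer cells of a type be told apart from less transcription per cell.

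The authors had counted uniquely aligned reads on 6324 transcription units, which are annotated gene bodies, lengthened at the 3′ end where the reads of any state reached further. Of these, 4705 carried a single gene name and 1619 were merged from overlapping genes. Total counts were 3734769 to 6366886 in IBA and 6345826 to 7697181 in Ent. Of the 15 hepatocyte markers listed, 9 had their own unit, with a summed level of 11161 to 14675 CPM (read counts scaled to a common library size) in IBA and 9506 to 10604 in Ent, so that the groups did not overlap. Only 1 of the 9, the transferrin gene Tf, was lower by the test described next. The endothelial markers with a unit (4 of 15) summed to 228 to 259 CPM in IBA and 223 to 264 in Ent, and none was called, while lymphocyte, neutrophil and erythroid markers had no unit of their own. The part of cell makeup in the results was not tested.

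Transcription changed in both directions at once. A unit was called changed at an adjusted p of 0.05 or less in the quasi-likelihood test of edgeR, where the Benjamini-Hochberg adjustment covered the whole table of 6324 units. In this test 1018 units (16.1%) differed, 554 of them higher and 464 lower in Ent. Among the 4705 single-gene units, 403 (8.57%) were higher and 382 (8.12%) were lower. Most changes were modest: the median log2 fold change (Ent over IBA) was 0.77 among the higher and -0.85 among the lower single-gene units, and 101 and 128 of them, respectively, changed at least 2-fold. Without any test, all 3 Ent libraries lay above all 3 IBA libraries in 1023 single-gene units (21.7%) and below them in 1058 (22.5%). At an adjusted p of 0.001, only 2 units of 6324 (0.0316%) passed. The plot of change against level shows called units in both directions at low and at high levels.

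**Figure D1:**
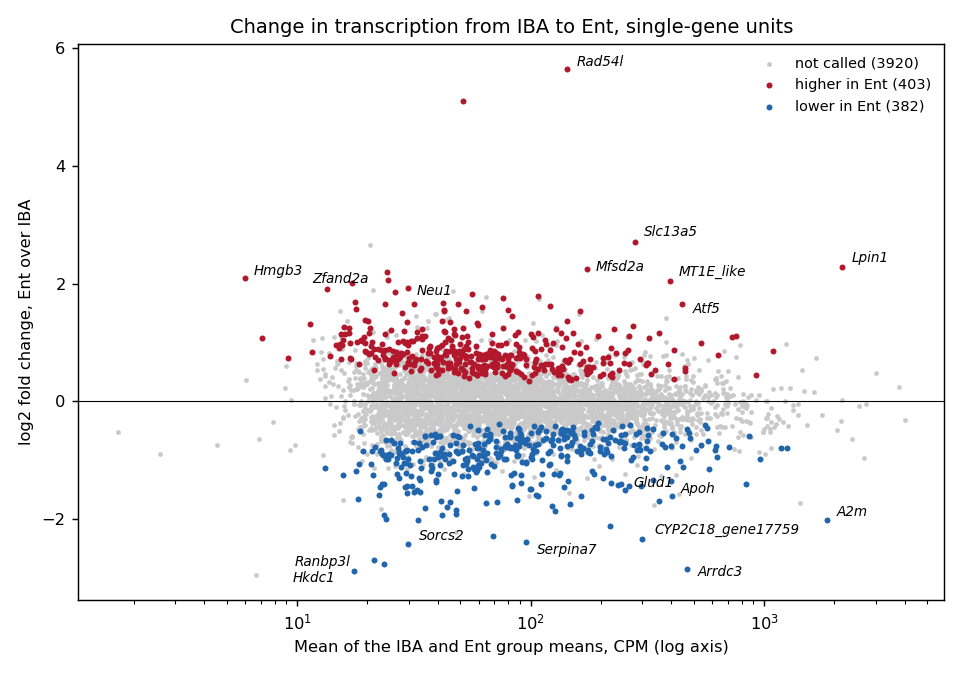
Each point is a single-gene unit, placed by its mean level in CPM on a log axis and by its log2 fold change from IBA to Ent (edgeR). Red points (403) were called higher in Ent, blue points (382) lower, and grey points (3920) were not called at an adjusted p of 0.05.

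The number of calls rested on each animal. Leaving out 1 library at a time gave 904 changed units without Ent replicate 1, 566 without Ent replicate 2, 591 without Ent replicate 3, 392 without IBA replicate 1, 610 without IBA replicate 2 and 538 without IBA replicate 3. In all 6 of these fits, 123 of the 403 higher and 124 of the 382 lower single-gene units stayed called, and in none did a called unit change sign. The split between directions depended on the scaling, because scaling to the uniquely mapped reads of each library moved the median of all units up by 0.14 on the log2 scale, to 1007 units higher and 294 lower, or 77.4% higher against 54.4% under the scaling used throughout. Scaling to total counts gave 64.8% higher.

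Among the 12 largest rises, the gene with the highest level was Lpin1. Lpin1, which encodes a phosphatidate phosphatase that also acts as a transcriptional coactivator in fasting liver, had 916, 714 and 595 CPM in the IBA libraries and 4576, 1783 and 4405 CPM in the Ent libraries. The groups did not overlap, and Ent replicate 2 was the lowest of the Ent group. The log2 fold change of Lpin1 was 2.28 (SE 0.46, edgeR adjusted p = 0.0079), and the call held whichever library was left out. Per kb of unit, Lpin1 was transcribed at 8.03 CPM in IBA and 38.9 in Ent.

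Slc13a5, the sodium-dependent citrate importer of the hepatocyte surface, had 80.7, 63.5 and 78.2 CPM in IBA against 439.8, 191 and 824 in Ent (log2 fold change 2.71, SE 0.65, edgeR adjusted p = 0.0162). Mfsd2a, a transporter of lysophosphatidylcholine that carries long-chain polyunsaturated fatty acids, had 64.2, 66.3 and 50.6 CPM in IBA and 456, 113 and 291 in Ent (log2 fold change 2.25, SE 0.56, edgeR adjusted p = 0.0183). In both genes, as in Lpin1, the Ent animals differed among themselves more than the IBA animals, with replicate 2 the lowest. Their calls depended on single libraries. Slc13a5 passed without Ent replicate 1 or 2 but not without any other library (edgeR adjusted p from 0.0546 to 0.0634), and Mfsd2a passed without Ent replicate 2 or 3 but not without any other library (edgeR adjusted p from 0.0528 to 0.0713).

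The largest rise of all was that of Rad54l, which encodes a DNA translocase of homologous recombination. It was close to silent in IBA, at 3.41, 6.69 and 6.39 CPM, and reached 532, 127 and 185 CPM in Ent. The log2 fold change was 5.64 (SE 1.40, edgeR adjusted p = 0.0182), with no overlap between groups, and levels in SA, ET and LT averaged 26.9, 93.2 and 68.9 CPM. The call was lost without IBA replicate 1, 2 or 3 (edgeR adjusted p of 0.0777, 0.0603 and 0.0665). The nearest upstream unit, Pik3r3, lay 106153 nt away on the other strand and averaged 24.4 CPM in IBA and 20.3 in Ent (edgeR adjusted p = 0.752), with overlapping groups.

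Units of metallothioneins, small proteins that bind zinc and copper, were among the largest rises. MT1E_like had 114, 154 and 192 CPM in IBA and 517, 525 and 859 in Ent (log2 fold change 2.04, SE 0.41, edgeR adjusted p = 0.0079). It had the highest level per kb of all higher units with a gene symbol, 15.7 CPM per kb in IBA and 64.6 in Ent. The adjacent merged unit MT1G_like:MT2A_like, 5803 nt downstream on the same strand, had 186, 269 and 465 CPM in IBA and 1599.7, 1062 and 2318 in Ent (log2 fold change 2.43, SE 0.53, edgeR adjusted p = 0.0104), and was not called without IBA replicate 1 (edgeR adjusted p = 0.0512). Metallothionein genes are near copies of each other, so that the counts may be split between them with some error.

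The SLC30 family, which includes zinc exporters, was counted after values were seen. Of its 7 members with their own unit, 2 (28.6%) were higher and 0 lower, against 8.57% and 8.12% of all single-gene units. The SLC39 family of zinc importers was not counted. Its member Slc39a11 was lower, at 0.751 CPM per kb in IBA and 0.402 in Ent, and held in 3 of the 6 fits that left out a library. Slc30a2 rose from 10.8, 16.1 and 18.5 CPM to 42.1, 57.9 and 43.9 (log2 fold change 1.65, edgeR adjusted p = 0.00685), and Slc30a1, chosen after its values were seen, rose by 0.94 on the log2 scale (edgeR adjusted p = 0.00777), each in all 6 fits that left out a library. In torpor the metallothionein units were low again, with means of 102 CPM in ET and 76.3 in LT for MT1E_like, whereas Slc30a2 was at 83.0 and 70.9 CPM.

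Among the other large rises, Slc25a5, an ADP/ATP carrier of the inner mitochondrial membrane, went from 7.67, 12.5 and 13.4 CPM to 35.9, 56.2 and 32.02 (log2 fold change 1.86, SE 0.29, edgeR adjusted p = 0.00327). Neu1, the lysosomal sialidase, went from 10.2, 12.5 and 14.05 CPM to 49.4, 49.0 and 43.1 (log2 fold change 1.93, SE 0.18), with the lowest adjusted p of the higher units (0.000303, edgeR). Ypel1 rose by 1.90 (edgeR adjusted p = 0.0106) and Hmgb3, a chromatin protein, by 2.09 (edgeR adjusted p = 0.0107). Hmgb3 was weakly transcribed, at 0.853 to 3.83 CPM in IBA and 5.28 to 15.9 CPM in Ent. The calls of these 4 genes held in all 6 fits that left out a library.

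Zfand2a, a stress-inducible partner of the proteasome, had 8.15 to 11.2 CPM in IBA and 25.4 to 51.3 in Ent (log2 fold change 2.06, edgeR adjusted p = 0.0171), and lost its call without Ent replicate 3, IBA replicate 1 or IBA replicate 2 (edgeR adjusted p from 0.0569 to 0.0657). Fgfrl1, a receptor of the fibroblast growth factor family without a kinase domain, had 33.0 to 62.9 CPM in IBA and 111 to 240.1 in Ent (log2 fold change 1.80, edgeR adjusted p = 0.0117), and missed the threshold only without IBA replicate 1 (edgeR adjusted p = 0.0551). Nfam1, an immunoreceptor of leukocytes, spread widely within Ent, at 153, 77.9 and 30.1 CPM against 24.4, 28.2 and 20.9 in IBA (log2 fold change 1.83, edgeR adjusted p = 0.036), and was called only when Ent replicate 3 was the library left out (edgeR adjusted p from 0.0663 to 0.141 without another library).

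**Figure D2:**
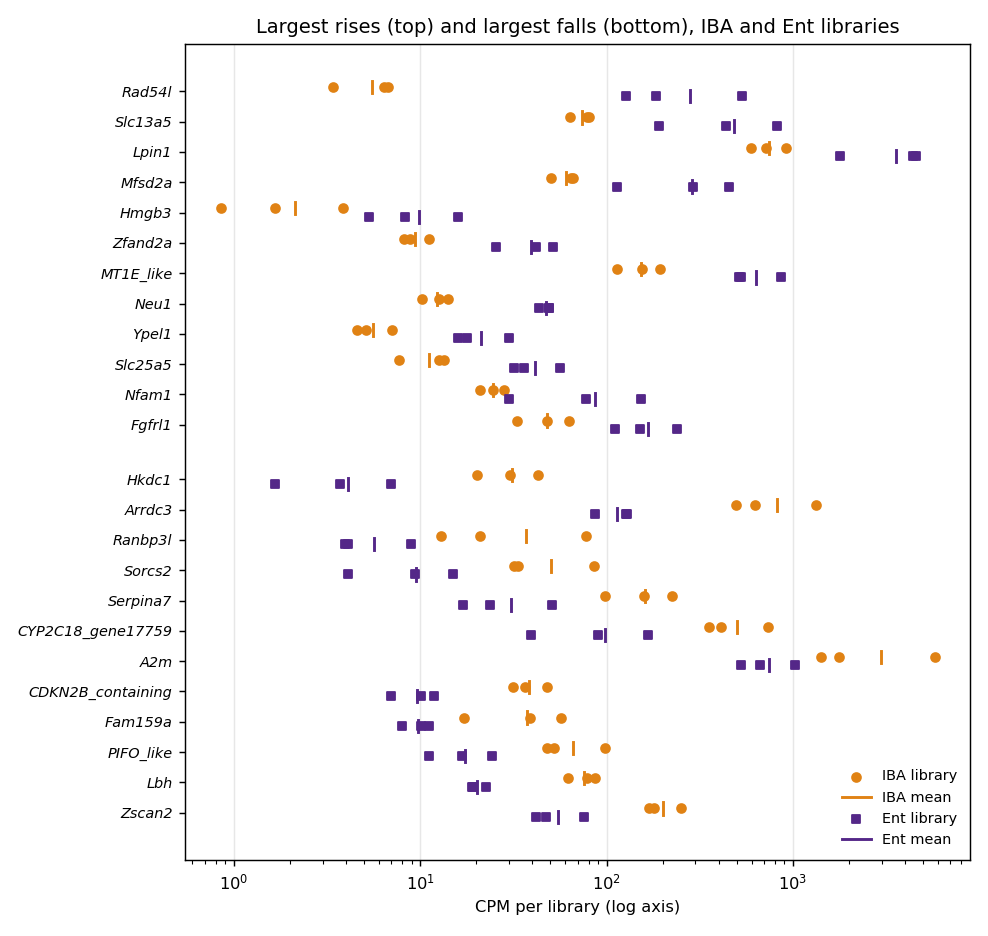
CPM in each IBA (orange circles) and Ent (purple squares) library on a log axis, with short vertical lines at the group means, for the 12 named genes with the largest rises (top) and the 12 with the largest falls (bottom). The groups do not overlap in any of the 24, but Ent replicate 3 of Nfam1, at 30.1 CPM, lies just above the highest IBA library.

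The largest fall was that of Hkdc1. Hkdc1, a hexokinase, had 42.6, 20.1 and 30.3 CPM in IBA and 7.00, 1.66 and 3.71 in Ent (log2 fold change -2.88, SE 0.69, edgeR adjusted p = 0.0161). Arrdc3, an arrestin-domain protein that moves receptors into the cell, had 1335, 496 and 626 CPM in IBA and 129, 86.9 and 127 in Ent (log2 fold change -2.84, SE 0.62, edgeR adjusted p = 0.0108). Ranbp3l, a nuclear export factor for Smad proteins, had 77.6, 13.0 and 20.9 CPM in IBA and 3.96, 4.08 and 8.89 in Ent (log2 fold change -2.70, edgeR adjusted p = 0.0182). In Arrdc3 and Ranbp3l, IBA replicate 1 was by far the highest library. Arrdc3 stayed called in every fit that left out a library, whereas Hkdc1 lost its call without Ent replicate 2, Ent replicate 3 or IBA replicate 1 (edgeR adjusted p from 0.0574 to 0.0611) and Ranbp3l without Ent replicate 1, Ent replicate 2 or IBA replicate 1 (edgeR adjusted p from 0.056 to 0.0941).

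Sorcs2, a sorting receptor of the sortilin family whose unit spans 326 kb, had 33.5, 85.9 and 31.9 CPM in IBA and 4.09, 9.37 and 15.0 in Ent (log2 fold change -2.42, edgeR adjusted p = 0.00842). Zscan2, a zinc finger protein, had 250.1, 169 and 180.1 CPM in IBA and 75.6, 41.6 and 47.1 in Ent (log2 fold change -1.86, edgeR adjusted p = 0.00418). Lbh, a transcription cofactor, had 62.1 to 86.7 CPM in IBA and 18.9 to 22.7 in Ent (log2 fold change -1.90, edgeR adjusted p = 0.00466). Fam159a and PIFO_like also fell, by 1.93 and 1.92 on the log2 scale (edgeR adjusted p = 0.00938 and 0.00528). These 5 stayed called in all 6 fits that left out a library. In contrast CDKN2B_containing, named for a cell cycle inhibitor, fell from 31.5 to 47.7 CPM in IBA to 6.97 to 11.9 CPM in Ent (log2 fold change -1.99, edgeR adjusted p = 0.0307), and was called in none of the 6 (edgeR adjusted p from 0.0533 to 0.102).

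Among the CYP2C genes, which encode cytochromes P450 of drug and arachidonic acid metabolism, 2 units with named values fell. CYP2C18_gene17759 had 735, 409 and 356 CPM in IBA and 39.5, 166 and 90.4 in Ent (log2 fold change -2.34, SE 0.71, edgeR adjusted p = 0.0404), but passed only when Ent replicate 2 was the library left out (edgeR adjusted p from 0.0641 to 0.136 without another library). CYP2C8 had 102, 50.6 and 51.1 CPM in IBA and 14.1, 25.5 and 19.0 in Ent (log2 fold change -1.79, SE 0.36, edgeR adjusted p = 0.0083), and held in all 6 such fits. Both units lie on chromosome Itri1 of the HiC_Itri_2 assembly, CYP2C18_gene17759 from 38152214 and CYP2C8 from 38806017. Reads of near-identical copies cannot be assigned with certainty, so these values may be shared among the copies.

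Plasma carriers had the lowest median change of the 46 lists. Of 8 plasma carriers with their own unit, 3 (37.5%) were lower and 0 higher, against 8.12% and 8.57% of all single-gene units. Leaving out a library gave 2 to 4 lower. The median log2 fold change of the list was -0.90, against -0.02 over all single-gene units. In 7 of the 8, all Ent libraries lay below all IBA libraries, as they did in 22.5% of all single-gene units. Apoh, which encodes beta-2 glycoprotein I, had 659.6, 595 and 566 CPM in IBA and 206, 258 and 132 in Ent (log2 fold change -1.61, SE 0.31, edgeR adjusted p = 0.00625). Tf, transferrin, had 637, 549.9 and 489 CPM in IBA and 372, 355 and 264 in Ent (log2 fold change -0.76, SE 0.16, edgeR adjusted p = 0.0095). Serpina7, thyroxine-binding globulin, fell by 2.38 (SE 0.58, edgeR adjusted p = 0.0177), though not past the threshold without Ent replicate 2, Ent replicate 3 or IBA replicate 1 (edgeR adjusted p from 0.0658 to 0.0689). The merged unit next to it, G4250:G4257:Serpina7, fell alike, from 456 to 736 CPM in IBA to 80.4 to 125 CPM in Ent (log2 fold change -2.42, edgeR adjusted p = 0.00168).

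Other secreted proteins moved in both directions. A2m, alpha-2-macroglobulin, had 5767, 1413 and 1771 CPM in IBA and 526, 668 and 1030.0 in Ent, and IBA replicate 1 stood far above the others (log2 fold change -2.01, SE 0.57, edgeR adjusted p = 0.0308). Its call was lost without any Ent library or without IBA replicate 1 (edgeR adjusted p from 0.0517 to 0.171). Itih2, a hyaluronan-binding plasma protein, fell by 0.68 (edgeR adjusted p = 0.0133), while Lbp, which binds bacterial lipopolysaccharide, rose by 1.62 (edgeR adjusted p = 0.0363) and was not called without Ent replicate 2, Ent replicate 3, IBA replicate 1 or IBA replicate 3 (edgeR adjusted p from 0.0883 to 0.115). Of the 8 acute-phase proteins with a unit, 1 (12.5%) was higher and 2 (25%) lower, against 8.57% and 8.12% of all single-gene units.

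Kng1, kininogen, was the only coagulation gene of 10 called, at 1236 to 1320.3 CPM in IBA and 625 to 683 in Ent (log2 fold change -0.98, edgeR adjusted p = 0.0299), although it missed the threshold without any of the 6 libraries (edgeR adjusted p from 0.0643 to 0.0872). Cfi was the only complement gene of 10 called (log2 fold change -0.68, edgeR adjusted p = 0.0194), and missed it without Ent replicate 1, Ent replicate 2 or IBA replicate 1 (edgeR adjusted p from 0.0587 to 0.0797). Both the coagulation and the complement list thus had 10% lower, near the 8.12% of all single-gene units.

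Of 22 genes of gluconeogenesis, glycolysis and glycogen, 4 (18.2%) were lower and 2 (9.09%) higher, against 8.12% and 8.57% of all single-gene units. The median of the list was -0.09, and without IBA replicate 1 the counts were 2 lower and 0 higher. Gys2, the liver glycogen synthase, had 497, 306 and 259 CPM in IBA and 129, 126 and 146 in Ent (log2 fold change -1.40, SE 0.29, edgeR adjusted p = 0.00882). Khk, ketohexokinase, had 156, 224 and 180.2 CPM in IBA and 72.3, 91.0 and 73.8 in Ent (log2 fold change -1.24, SE 0.24, edgeR adjusted p = 0.00625). Ugp2, which makes the UDP-glucose used for glycogen, fell by 0.95 (edgeR adjusted p = 0.0145, and 0.0525 without IBA replicate 1). Slc2a2, the hepatocyte glucose transporter, fell by 0.79 (edgeR adjusted p = 0.0449) but was called only when Ent replicate 3 was the library left out (edgeR adjusted p from 0.0716 to 0.153 without another).

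The gluconeogenic gene Pck1 did not pass, at 1081, 2053 and 1482 CPM in IBA and 2071, 1646 and 1432 in Ent (log2 fold change 0.16, SE 0.42, edgeR adjusted p = 0.831), with overlapping groups. G6pc had a log2 fold change of -0.79 (SE 0.44, edgeR adjusted p = 0.241), with no overlap between groups. Pgk1, a glycolytic kinase, rose by 0.72 (edgeR adjusted p = 0.012, and 0.0581 without IBA replicate 1).

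Of 12 genes of fatty acid synthesis, 2 (16.7%, against 8.12% of all single-gene units) were lower and 0 higher by edgeR. DESeq2 called 3 higher and 3 lower. The median log2 fold change of the list was 0.29, and 8 of the 12 lay above 0. Leaving out a library gave 0 to 2 lower, with 0 without IBA replicate 3. Both lower genes encode enzymes that desaturate or lengthen polyunsaturated fatty acids. Fads1 fell by 1.43 (SE 0.34, edgeR adjusted p = 0.0161) and Elovl2 by 1.21 (SE 0.32, edgeR adjusted p = 0.0235). Their calls were each lost in 3 of the 6 fits that left out a library (Fads1 without Ent replicate 3, IBA replicate 2 or IBA replicate 3, edgeR adjusted p from 0.0513 to 0.0585; Elovl2 without Ent replicate 1, IBA replicate 1 or IBA replicate 3, edgeR adjusted p from 0.0546 to 0.0945). Fads2 was at -1.29 (SE 0.42, edgeR adjusted p = 0.0519). Fasn, fatty acid synthase, was at 1.06 (SE 0.37, edgeR adjusted p = 0.0659), and Acacb, the acetyl-CoA carboxylase that restrains mitochondrial fat uptake, at 1.42 (SE 0.55, edgeR adjusted p = 0.0961).

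Of 22 genes of fatty acid oxidation and ketogenesis, 4 (18.2%) were lower and 0 higher, against 8.12% and 8.57% of all single-gene units. The lower count was 4 without Ent replicate 1, 2 without IBA replicate 1 and 1 without any other library. Bdh1, which interconverts the ketone bodies, fell most, from 323, 373 and 339 CPM to 153, 148 and 86.1 (log2 fold change -1.42, SE 0.26, edgeR adjusted p = 0.00546). Crot and Eci2, of peroxisomal and mitochondrial oxidation, also fell (edgeR adjusted p = 0.0454 and 0.0202), Crot by 1.12 on the log2 scale, but Crot passed only when Ent replicate 1 was left out (edgeR adjusted p from 0.0889 to 0.141 without another library) and Eci2 only when Ent replicate 1 or IBA replicate 1 was (edgeR adjusted p from 0.0565 to 0.0765 without another). The median of the list was -0.05 and turned positive with scaling to total counts or uniquely mapped reads, so that the list as a whole had no stable direction. Scp2, a sterol carrier of bile acid synthesis, fell by 0.76 (edgeR adjusted p = 0.0076).

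Of 38 genes of the urea cycle and amino acid catabolism, 5 (13.2%, against 8.57% of all single-gene units) were higher, all of them in the breakdown of lysine, branched-chain amino acids or their products (Aass, Bckdhb, Ivd, Mccc2 and Pcca), and 1 was lower. The higher count was 0 without IBA replicate 1, 1 without Ent replicate 2 or IBA replicate 3, 3 without IBA replicate 2, and 4 without Ent replicate 1 or Ent replicate 3. The lower gene was Glud1, the glutamate dehydrogenase that releases ammonia, with 354, 390.5 and 378 CPM in IBA and 141, 148 and 105 in Ent (log2 fold change -1.51, SE 0.19, edgeR adjusted p = 0.00239). Its call held in all 6 fits. Ass1 of the urea cycle had a log2 fold change of 1.09 with a wide error (SE 0.69, edgeR adjusted p = 0.304).

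Among 15 genes of insulin, IGF and growth hormone signalling, 1 (6.67%) was higher and 2 (13.3%) lower, against 8.57% and 8.12% of all single-gene units. Foxo1, the transcription factor that insulin keeps out of the nucleus, had 446, 459 and 484 CPM in IBA and 998, 775 and 1205 in Ent (log2 fold change 1.10, SE 0.32, edgeR adjusted p = 0.0374), and passed only when Ent replicate 2 was the library left out (edgeR adjusted p from 0.0683 to 0.117 without another). Grb14, an inhibitor of the insulin receptor, fell from 588, 466 and 514 CPM to 266, 218 and 240.3 (log2 fold change -1.11, SE 0.17, edgeR adjusted p = 0.00317). Stat5b, which relays growth hormone, fell from 140.1, 123 and 121 CPM to 75.5, 55.0 and 58.6 (log2 fold change -1.02, SE 0.18, edgeR adjusted p = 0.00519). Grb14 and Stat5b held in all 6 fits. Igfbp1 was at -1.72 (SE 0.72, edgeR adjusted p = 0.119) and Igf1 at -0.19 (SE 0.73, edgeR adjusted p = 0.885).

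Of 10 clock genes, 2 (20%) were higher and 0 lower, against 8.57% and 8.12% of all single-gene units. They were Per2 and Cry2, which rose by 0.95 and 0.86 (edgeR adjusted p = 0.0186 and 0.0352). Per2 lost its call without Ent replicate 2, IBA replicate 2 or IBA replicate 3 (edgeR adjusted p from 0.0699 to 0.0788) and Cry2 without any library but IBA replicate 1 (edgeR adjusted p from 0.0589 to 0.121). The hour of sampling was not a term of any fit, and its part was not tested. Of 28 hepatocyte transcription factors and nuclear receptors, 4 (14.3%) were lower and 0 higher, against 8.12% and 8.57% of all single-gene units. The lower count was 1 without IBA replicate 1. Nr5a2 was among the lower ones, with 625 to 728 CPM in IBA and 397 to 404 in Ent (log2 fold change -0.73, edgeR adjusted p = 0.0076).

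Genes for the machinery of gene expression and energy production were next. Of 30 cytosolic ribosomal protein genes with their own unit, 10 (33.3%) were higher and 0 lower, against 8.57% and 8.12% of all single-gene units. Their median log2 fold change was 0.40, and 28 of 30 lay above 0. Rps29 had 25.01, 29.7 and 29.7 CPM in IBA and 51.6, 55.9 and 52.2 in Ent (log2 fold change 0.92, SE 0.22, edgeR adjusted p = 0.0159, and 0.0688 without IBA replicate 1). The higher count was 10 without Ent replicate 1, 4 without Ent replicate 2, Ent replicate 3 or IBA replicate 2, 3 without IBA replicate 3, and 1 without IBA replicate 1, while the median stayed between 0.36 and 0.42. Another 43 ribosomal protein genes lie in merged units and were not counted.

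Of 27 genes for oxidative phosphorylation subunits and assembly factors, 6 (22.2%) were higher and 0 lower, against 8.57% and 8.12% of all single-gene units. Their median was 0.39. Ndufv3, of complex I, had 19.6, 28.0 and 28.1 CPM in IBA and 48.7, 53.5 and 41.4 in Ent (log2 fold change 0.92, SE 0.17, edgeR adjusted p = 0.00554). Ndufaf4, an assembly factor, rose by 0.97 (edgeR adjusted p = 0.0122). Both held in all 6 fits, in which the higher count was 2 without Ent replicate 2, IBA replicate 1 or IBA replicate 2 and 4 or 5 without the others. Mitochondrial ribosomal protein genes did not show the same count, with 0 of 13 higher and 2 lower.

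Of 21 proteasome genes, 7 (33.3%) were higher and 1 (4.76%) lower, against 8.57% and 8.12% of all single-gene units. Their median was 0.29. Psmb3, of the catalytic core, had 22.2, 30.7 and 35.4 CPM in IBA and 59.0, 76.5 and 59.7 in Ent (log2 fold change 1.13, SE 0.21, edgeR adjusted p = 0.00546) and held in all 6 fits. The lower gene was Psmd11, of the regulatory lid (log2 fold change -0.36, edgeR adjusted p = 0.026), which passed only when IBA replicate 2 was the library left out (edgeR adjusted p from 0.059 to 0.1 without another). The count of higher genes was 7 without Ent replicate 1, 3 without Ent replicate 2 or IBA replicate 2, 2 without Ent replicate 3 or IBA replicate 3, and 1 without IBA replicate 1.

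The splicing factors called were all higher in Ent, but most were not called. Of 16 SR-type genes, which encode serine- and arginine-rich regulators of splicing, 6 (37.5%) were higher and 0 lower (median 0.27). Over all single-gene units the shares were 8.57% and 8.12%. Of 16 hnRNP genes, 4 (25%) were higher and 0 lower (median 0.34), and of 33 core spliceosome genes 4 (12.1%) were higher and 0 lower (median 0.10). Hnrnpa1 had 79.9, 105 and 87.5 CPM in IBA and 168, 214 and 193 in Ent (log2 fold change 1.07, SE 0.17, edgeR adjusted p = 0.00327). Prpf38b, of the core spliceosome, had 59.4, 69.8 and 67.5 CPM in IBA and 128, 142 and 149 in Ent (log2 fold change 1.09, SE 0.15, edgeR adjusted p = 0.00251). These 2 genes and Hnrnpdl (log2 fold change 0.84) held in all 6 fits. Without Ent replicate 2 the higher counts of the 3 lists were 2, 2 and 1, and without IBA replicate 1 they were 3, 2 and 1. Of 6 CLK, SRPK and DYRK kinases, which phosphorylate SR proteins, 0 were called by edgeR (2 at an unadjusted p of 0.05, 1 lower by DESeq2 and 0 by limma-voom), and the median was 0.02.

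Other lists of the same machinery were counted alike, beside 8.57% higher and 8.12% lower of all single-gene units. Of 40 genes of RNA polymerase II, Mediator and elongation 1 was higher and 1 lower, of 60 chromatin modifiers 3 and 2, of 16 RBM genes with Cirbp 1 and 0, of 18 cleavage and termination factors 2 and 1, and of 10 RNA editing and m6A genes 3 and 1. Adat1, a tRNA adenosine deaminase, was the lower one of these (58.3, 50.2 and 60.2 CPM in IBA, 23.5, 22.5 and 25.6 in Ent, log2 fold change -1.23, SE 0.16, edgeR adjusted p = 0.00239). Without IBA replicate 1, Ent replicate 3 or IBA replicate 3, 0 chromatin modifiers were higher. Of 21 translation factors, 4 were higher and 1 lower, but 1 was higher without IBA replicate 1 or IBA replicate 3, and 0 were lower in any of the 6 fits. Eif1, which guides start codon choice, rose from 134, 178 and 166 CPM to 435, 457 and 268 (log2 fold change 1.28, SE 0.26, edgeR adjusted p = 0.00842). Adat1 and Eif1 held in all 6 fits.

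**Figure D3:**
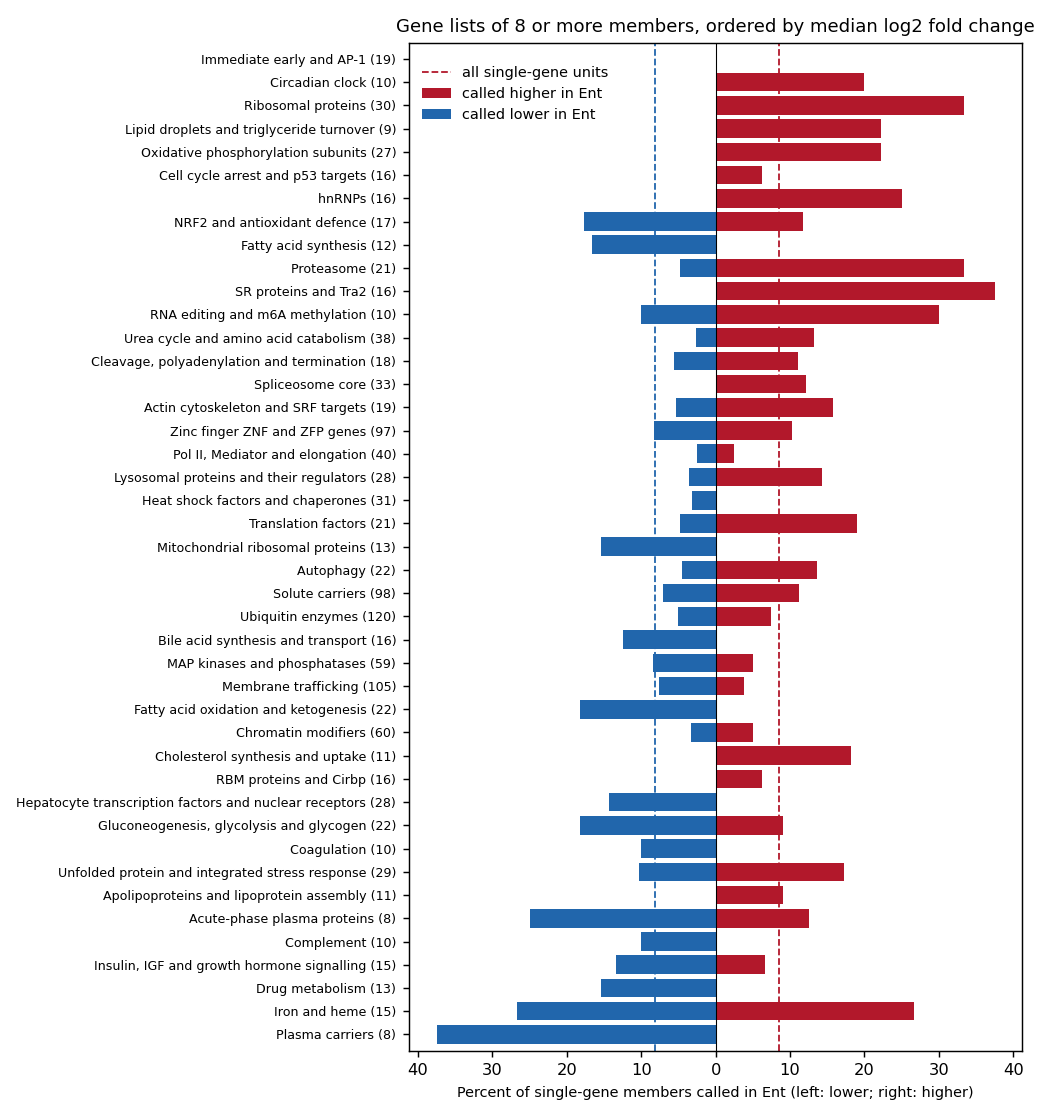
Percent of the single-gene members of each list called higher (red, to the right) or lower (blue, to the left) in Ent, with the number of members in parentheses, for lists of at least 8 members, ordered from the highest (top) to the lowest median log2 fold change. Dashed lines mark all single-gene units, 8.57% higher and 8.12% lower, and ribosomal, proteasome and SR protein genes reach past them to the right, plasma carriers to the left.

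Of 29 genes of the unfolded protein and integrated stress responses, 5 (17.2%) were higher and 3 (10.3%) lower, against 8.57% and 8.12% of all single-gene units. The median of the list was -0.14 (0.01 with scaling to uniquely mapped reads), and 20 of the 29 lay below 0. Leaving out a library gave 2 to 4 higher and 0 to 2 lower (0 lower without Ent replicate 2, Ent replicate 3, IBA replicate 1 or IBA replicate 3). The higher ones included transcription factors that act downstream of the kinases of the integrated stress response: Atf5 rose from 142, 232 and 268 CPM to 713, 738 and 582 (log2 fold change 1.66, SE 0.23, edgeR adjusted p = 0.00252), and Ddit3, which encodes CHOP, from 178, 179 and 193 CPM to 365, 339.7 and 307 (log2 fold change 0.88, SE 0.18, edgeR adjusted p = 0.00769). Herpud1, of degradation at the endoplasmic reticulum, rose by 0.79 (edgeR adjusted p = 0.0224), though not without Ent replicate 3, IBA replicate 1 or IBA replicate 3 (edgeR adjusted p from 0.0721 to 0.0945). Atf5 and Ddit3 held in all 6 fits.

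Of the chaperones of the endoplasmic reticulum, Pdia4 fell by 1.08 (edgeR adjusted p = 0.0299), though not without Ent replicate 2, Ent replicate 3, IBA replicate 1 or IBA replicate 3 (edgeR adjusted p from 0.0721 to 0.113), and Hspa5, the main such chaperone, was at -0.55 (SE 0.36, edgeR adjusted p = 0.317). Of 31 heat shock factors and cytosolic chaperones, 1 (3.23%) was lower and 0 higher, against 8.12% and 8.57% of all single-gene units. It was Dnaja1, a partner of Hsp70, which fell from 51.4, 37.4 and 52.5 CPM to 23.2, 19.2 and 15.1 (log2 fold change -1.29, SE 0.28, edgeR adjusted p = 0.0107). The inducible Hspa1a was at 1.36 with overlapping groups (SE 0.57, edgeR adjusted p = 0.119). Of 19 immediate early genes, 0 were called by edgeR (1 at an unadjusted p of 0.05, and 1 higher by DESeq2 and by limma-voom after adjustment), with a median of 0.46 and both signs present, such as Egr1 at -0.85 (SE 0.71, edgeR adjusted p = 0.437) and Zfp36l1 at -0.12 (edgeR adjusted p = 0.782).

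Of 28 lysosomal genes, 4 (14.3%) were higher and 1 (3.57%) lower, against 8.57% and 8.12% of all single-gene units. Beside Neu1, the cholesterol-binding Npc2 rose from 11.4, 8.36 and 10.2 CPM to 23.5, 23.4 and 19.0 (log2 fold change 1.14, edgeR adjusted p = 0.0095) and the protease Ctsh from 92.9, 141 and 125 to 216, 206 and 259 (log2 fold change 0.92, edgeR adjusted p = 0.0102). Of 22 autophagy genes, 3 (13.6%) were higher and 1 (4.55%) lower. Atg4d, which processes LC3-type proteins, rose from 43.5, 53.9 and 46.3 CPM to 86.6, 90.7 and 81.1 (log2 fold change 0.85, SE 0.13, edgeR adjusted p = 0.00337), and Deptor, an inhibitor of mTOR, fell by 1.02 (edgeR adjusted p = 0.0107). The calls of these 5 genes held in all 6 fits. Most members of both lists were not called, and their medians were 0.04 and 0.01.

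Iron and heme genes moved both ways within 1 list of 15, 4 higher and 4 lower (26.7% each, against 8.57% and 8.12% of all single-gene units). Cpox, of heme synthesis, fell from 113, 69.2 and 68.6 CPM to 33.8, 33.6 and 23.6 (log2 fold change -1.46, SE 0.24, edgeR adjusted p = 0.00386), whereas Fech, the last enzyme of the same pathway, rose from 32.7, 27.6 and 29.1 to 44.1, 44.6 and 52.3 (log2 fold change 0.66, SE 0.14, edgeR adjusted p = 0.00842). Both held in all 6 fits. The counts of higher and lower members were 2 and 4 without Ent replicate 1, 1 and 1 without Ent replicate 2, IBA replicate 1 or IBA replicate 3, and 2 and 1 without Ent replicate 3 or IBA replicate 2. Of 17 genes of antioxidant defence, 2 (11.8%) were higher and 3 (17.6%) lower, with 0 lower in every fit but that without Ent replicate 1. The higher ones included Gss, glutathione synthetase (log2 fold change 0.84, edgeR adjusted p = 0.00755, called in all 6 fits).

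Of 98 solute carriers, 11 (11.2%) were higher and 7 (7.14%) lower, near the 8.57% and 8.12% of all single-gene units. The 98 include 15 SLC25 carriers, which serve the inner mitochondrial membrane, and of these, counted after their values were seen, 7 were higher, among them Slc25a5, and 1 was lower. Slc16a10, an aromatic amino acid transporter, fell from 150.3, 178 and 161 CPM to 87.8, 85.0 and 60.5 (log2 fold change -1.07, edgeR adjusted p = 0.0139, and 0.055 without Ent replicate 3). The counts of higher carriers ranged from 4 without IBA replicate 1 or IBA replicate 3 to 9 without Ent replicate 1, with 5 without each of the other 3 libraries, and those of lower carriers from 2 without IBA replicate 1 to 5 without Ent replicate 1, with 3 without each of the others.

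Of 19 actin and SRF target genes, 3 were higher and 1 lower. Cfl2, which severs actin filaments, rose from 19.0, 22.8 and 21.2 CPM to 37.2, 44.6 and 51.3 (log2 fold change 1.07, SE 0.20, edgeR adjusted p = 0.00558). Of 59 MAP kinase and phosphatase genes, 3 were higher and 5 lower, and Dusp6, the ERK phosphatase, fell from 209, 148 and 172 CPM to 82.5, 76.6 and 65.5 (log2 fold change -1.23, SE 0.26, edgeR adjusted p = 0.00991). Of 120 ubiquitin enzymes 9 were higher and 6 lower, of 97 zinc finger genes 10 and 8, and of 105 trafficking genes 4 and 8, against 8.57% higher and 8.12% lower of all single-gene units. Without IBA replicate 1 these counts were 6 and 3, 3 and 4, and 1 and 2, and those of the actin and MAP kinase lists were 1 and 1, and 0 and 2. Rnf168, a ubiquitin ligase of DNA damage signalling, rose from 29.0, 29.1 and 30.8 CPM to 49.5, 62.7 and 71.9 (log2 fold change 1.05, SE 0.16, edgeR adjusted p = 0.00317), and the zinc finger gene Zbtb40 fell from 226, 189 and 197 to 94.9, 65.9 and 61.7 (log2 fold change -1.46, SE 0.20, edgeR adjusted p = 0.00251). The calls of these 4 genes held in all 6 fits.

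The remaining lists held 3 to 16 members, and their shares stood beside 8.57% higher and 8.12% lower of all single-gene units. Of 9 lipid droplet genes 2 (22.2%) were higher, of 11 cholesterol genes 2 (18.2%) and of 11 apolipoprotein genes 1 (9.09%). Of 16 cell cycle arrest genes 1 (6.25%) was higher and of 6 vacuolar ATPase genes 1 (16.7%). None of these lists had a lower member. Of 16 bile acid genes 2 (12.5%) were lower, and of 13 drug metabolism genes 2 (15.4%), CYP2C8 and UGT2A1, with 0 higher in each. The bile acid count was 1 without any library but Ent replicate 3 or IBA replicate 1. The lipid droplet count was 1 without any of the 6 libraries, and the cholesterol count was 0 without Ent replicate 3, IBA replicate 1 or IBA replicate 3. The apolipoprotein count was 0 without any library but Ent replicate 1, the cell cycle count 0 without any but Ent replicate 2, and the vacuolar ATPase count 0 without any but Ent replicate 1 or IBA replicate 2. Of 3 arrestin-domain genes, only Arrdc3 was called.

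Changes differed with the length of the unit. Single-gene units under 10 kb had a median log2 fold change of 0.25 (378 units), those of 10 to 30 kb 0.12 (1643), those of 30 to 100 kb -0.07 (1881), those of 100 to 200 kb -0.19 (532) and those over 200 kb -0.12 (271). Of the units of 10 to 30 kb, 14.1% were called higher and 5.66% lower, whereas of those of 100 to 200 kb, 0.564% were called higher and 12.2% lower. The difference in medians between units under 10 kb and over 200 kb was 0.36. It was 0.37 in Ent replicate 1, 0.46 in Ent replicate 2 and 0.12 in Ent replicate 3, each set against the IBA mean. Only the last of these animals came from the winter of the IBA animals.

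The same difference varied among the IBA animals themselves, whose median deviation from the group was -0.08, 0.09 and 0.00 in units under 10 kb and 0.06, -0.07 and -0.01 in units over 200 kb, for replicates 1, 2 and 3. Without IBA replicate 1 the difference was 0.24, and without the other libraries in turn it lay between 0.28 and 0.47. Other scalings, which move all lengths nearly alike, gave 0.35 to 0.36, but with uniquely mapped reads the medians of the 30 to 100 kb and over 200 kb classes turned positive (0.07 and 0.03). No test was made of it, since units are not replicates.

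The split by length was repeated within levels. Dividing the units into 3 equal classes by CPM per kb, from the lowest to the highest, the shares called higher were 12.8%, 13.8% and 14.4% among units under 30 kb and 2.94%, 4.82% and 7.38% among longer units. Lists can differ in unit length, and all 30 ribosomal protein units are under 30 kb. Set against the 13.9% of all units under 30 kb that were called higher, 10 of 30 ribosomal protein genes (33.3%), 5 of 15 proteasome genes of that length (33.3%) and 5 of 21 oxidative phosphorylation genes of that length (23.8%) were called higher. These differences were not tested, and without IBA replicate 1 the higher counts of the whole ribosomal and proteasome lists were 1 each.

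**Figure D4:**
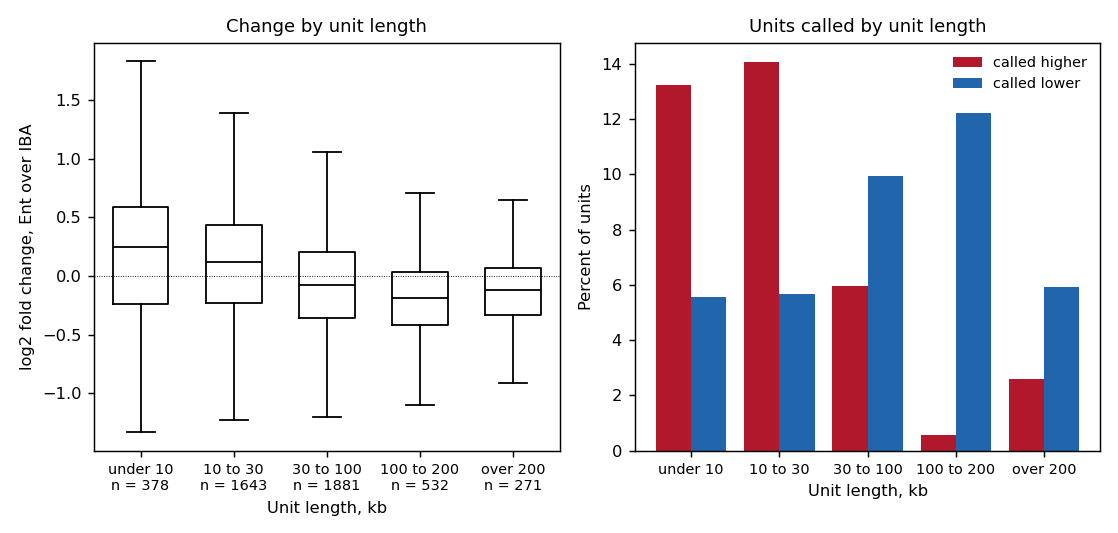
Left, log2 fold change from IBA to Ent by length of the single-gene unit (line, median; box, quartiles; whiskers, to the last unit within 1.5 interquartile ranges). Right, percent of units in each length class called higher (red) or lower (blue), with 14.1% higher at 10 to 30 kb and 0.564% at 100 to 200 kb.

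The position behind another gene was compared as well. Units with an upstream neighbour within 20 kb on the same strand had a median of 0.00 (440 units) and those with one on the other strand -0.01 (808 units). Within 5 kb the medians were -0.07 (119 units) and -0.01 (561 units). Where a lengthened gene body overlapped the next gene, the authors had merged them, and merged units were left out of these classes. Transcription running into a next gene could therefore not be seen in this comparison. The paper reports polymerase reaching further past gene ends as animals began to cool. Across chromosomes with at least 41 single-gene units, the medians lay between -0.13 and 0.07.

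Merged units and units without a gene symbol took part as well. Of 1619 merged units 151 were higher and 82 lower, and of 309 units without a symbol 17 were higher and 34 lower. Tssk2:Tssk1b:G17432 rose from 5.97, 7.32 and 6.71 CPM to 25.5, 39.8 and 32.02 (log2 fold change 2.27, SE 0.40, edgeR adjusted p = 0.00437), and LOC110598346:G2492, which follows Egr1 on the same strand, fell from 109, 76.5 and 118 CPM to 29.0, 23.3 and 22.2 (log2 fold change -2.02, edgeR adjusted p = 0.00466).

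The unannotated unit G35225, of 7 kb, was nearly silent in IBA at 2.27, 2.72 and 3.51 CPM and reached 179.8, 17.8 and 102 CPM in Ent (log2 fold change 5.10, SE 1.02, edgeR adjusted p = 0.00775). Its level in torpor was low again, at 5.27 CPM in ET and 2.63 in LT, and it was 95.2 CPM in SA. LOC110597766 rose by 2.20 (edgeR adjusted p = 0.00378), while G36643 fell by 2.75 (edgeR adjusted p = 0.0119) and G26595 by 2.28 (edgeR adjusted p = 0.00317). These 6 units held in all 6 fits that left out a library.

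The units called between IBA and Ent were then looked up in the 8 libraries of the other states. These are not part of the contrast, but they entered the fit from which its spread was estimated. A fit of the IBA and Ent libraries alone called 367 of the 403 higher and 351 of the 382 lower units again. Among the 403 units higher in Ent, the mean of the 5 torpid libraries (ET and LT) was above that of the 3 SA libraries in 378 (93.8%), with a median difference of 1.06 on the log2 scale. Among the 382 lower units it was below in 368 (96.3%), with a median of -1.06. Over all single-gene units it was above in 48.2% and below in 51.8%. In 318 of the 403 (78.9%) every torpid library lay above every SA library, and in 310 of the 382 (81.2%) every one lay below, against 23.6% and 24.97% over all single-gene units. Across the 4705 units, the change from IBA to Ent and the difference of the torpid from the SA libraries had Pearson's r = 0.60 and Spearman's rho = 0.66, a description, since units of the same libraries are not independent. The winter or year of collection was not modelled in this comparison. Because IBA and Ent animals differed in part in winter, it cannot be told apart from state here, and its part was not tested.

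Units that went against this pattern included those highest in Ent itself. MT1E_like, G35225 and Nfam1 had risen in Ent, yet averaged 102, 5.27 and 31.9 CPM in ET against 201, 95.2 and 46.0 in SA. The length pattern was not the same in these libraries either: units under 10 kb had a median torpid minus SA difference of -0.23 and units over 200 kb of -0.12.

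**Figure D5:**
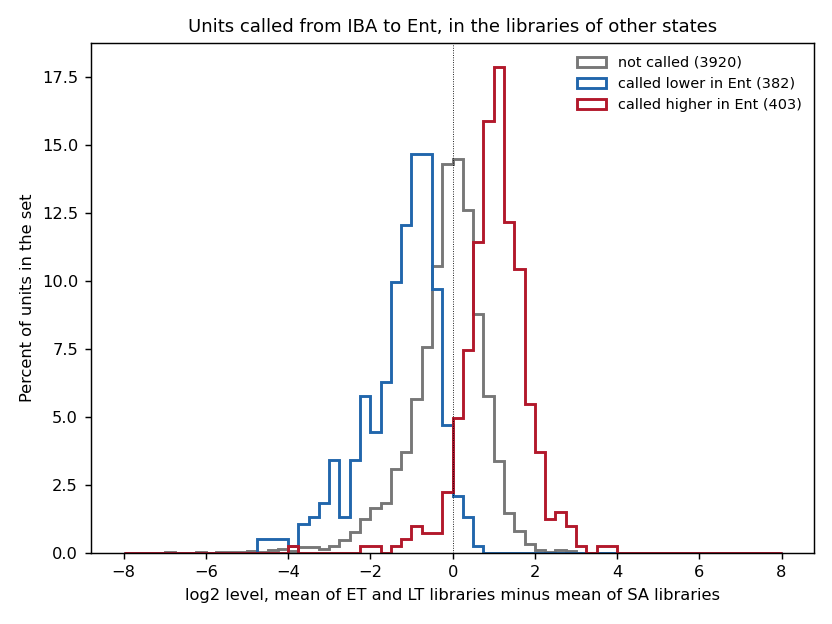
Distribution of the log2 level of the 5 torpid libraries (ET and LT) minus that of the 3 SA libraries, as percent of units, for single-gene units called higher (red, 403), lower (blue, 382) or not called (grey, 3920) from IBA to Ent. The medians are 1.06, -1.06 and -0.05.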

How the data were processed

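Nascent RNA was labelled in a nuclear run-on reaction on nuclei of frozen liver and sequenced. After trimming and alignment to HiC_Itri_2, the authors lengthened gene bodies where fstitch segments reached further 3′, left out the first 500 nt, merged overlapping genes and counted uniquely aligned reads. The deposited table holds these counts, which are whole numbers and not normalized. Unit lengths, start and end are the authors' deposited values too. The submitters' processing notes name cutadapt, BWA, featureCounts and DESeq2, with versions not given in the sources used here. LT replicate 2 was not analysed here.

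edgeR 4.0.16 (R 4.3.3) fitted the 5 states in all 14 libraries and 6324 units, with TMM scaling and its quasi-likelihood test. The contrast was Ent minus IBA, with Benjamini-Hochberg adjustment over all units and a threshold of 0.05. CPM are per TMM-scaled library, and log2 levels per library used CPM + 0.5. filterByExpr would remove 0 units. No unit was at 0 in every library of a group. Replicates of a group differed by more than sampling noise (chi-square per degree of freedom from 14.8 to 57.1). Fold changes rest on 3 animals a group, and small ones can be missed. Counts were simulated on 6324 units with the same spread in every unit, 100 units changed by 1 on the log2 scale and 100 by 2. Of these, 14% and 97% were called, against 0.049% of unchanged units. In the data the spread differed among units and 1018 units were called, so that these shares need not hold there.

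The members, 46 gene lists and rules were chosen with earlier results of these data known. Named genes were, among called single-gene units with a gene symbol and no overlap of libraries, the 12 largest rises and falls and the 6 with the highest level per kb in each direction. From each list they were up to 3 called members each way, of which the text gives a part, and the 2 largest rises and falls among units without a symbol and among merged units. Genes that define a pathway were given whether or not called. List members within merged units were not tested. Of the 4705 single-gene names, 86.4% matched a RefSeq symbol or synonym. Promoter sequence was not analysed here, and some units are not reported here. The alternatives were other scalings, adjusted deviances in edgeR, DESeq2 1.42.0, voom from limma 3.58.1, fits of fewer libraries or units, a count minimum of 10, stricter thresholds, replicate number as a block, winter as a term, and each library left out. Python 3.11.15 with pandas 2.3.3, numpy 2.4.6, scipy 1.17.1 and matplotlib 3.10.9 made the tables and figures.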

Additional observations from a re-analysis of the deposited data

How the results depend on the processing

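The 1018 changed units (554 higher, 464 lower) became 590 (336, 254) with the earlier-winter Ent libraries alone, 594 (315, 279) with the same-winter Ent library alone, whose spread was then taken from the other groups, and 623 (310, 313) with winter as a term. They became 2 (1, 1) at an adjusted p of 0.001 and 293 (135, 158) with at least a 2-fold change, by construction fewer. Leaving out 1 library gave 392 to 904 changed, 214 to 502 higher and 178 to 402 lower. Scaling to uniquely mapped reads gave 1007 higher and 294 lower. DESeq2 called 1442 units, 789 higher and 653 lower, within 1.5 times of the values above. Apart from the scaling and the construction of these fits, the cause was not tested.

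Of the 168 named units called, 70 stayed called in all 6 fits that left out a library and 10 in none, and no named unit changed direction under any alternative. Of the 168, DESeq2 and adjusted deviances each called 168 again, limma-voom 155, scaling to uniquely mapped reads 151, winter as a term 96 and the same-winter Ent library alone 79.

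With the replicate number as a block, 843 units changed, 448 higher and 395 lower, and 140 of the 168 named units stayed called. Same-numbered animals are different animals, and their deviations correlated at 0.0057, 0.24 and 0.059, while IBA replicate 1 correlated best with Ent replicate 3, so that the numbers did not pair the samples. The difference between same-strand and opposite-strand upstream neighbours, 0.0043, was -0.0016 or -0.013 without IBA replicate 1 or Ent replicate 1 and -0.061 within 5 kb. It lay between -0.013 and 0.023 over the libraries left out.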
